A study of Mus musculus with 12 samples.

Results

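The stria vascularis is the epithelium of the lateral wall of the cochlea, and its marginal cells secrete potassium into the endolymph that bathes the hair cells. The 6 genes followed here were listed for these cells and chosen by name from the gene name column of the deposited expression table. They are *Kcnq1*, *Kcne1*, *Esrrb*, *Slc12a2*, *Bsnd* and *Lrp2*, 6 of 37432 genes, called the members below. Of these, *Lrp2* did not follow the other members in these libraries. The study sequenced RNA of the cochlea of wild-type mice and of mice homozygous for 35delG, a deletion of a single base in the connexin 26 gene *Gjb2*, at P14. The cochlea was divided into an apical, a middle and a basal turn, and each genotype and turn has 2 libraries, which gives 6 groups and 12 libraries. The homozygous mice were males of an almost pure C57BL/6J background, made by tetraploid complementation with ICR foster mothers, while age-matched wild-type males were bought. Genotype and origin of the mice therefore cannot be told apart in these libraries. The number of mice and cochleae behind a library is not given in the sources used here, so p-values measure the spread between these libraries only.

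Marginal cells take up potassium from the fluid inside the stria through the sodium-potassium-chloride cotransporter SLC12A2, and release it into the endolymph through a channel built from the pore protein KCNQ1 and the accessory subunit KCNE1. The chloride that enters with it is recycled, for which the cells need barttin, an accessory subunit encoded by *Bsnd*. ESRRB is an orphan nuclear receptor needed for marginal cell identity, and LRP2, or megalin, is a large endocytic receptor of the apical membrane of many epithelia.

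The values are FPKM, fragment counts relative to transcript length and to the mapped total, divided by a scaling factor per library and called scaled FPKM below. The depth behind them is unknown, so an entry of 0 is given only as listed at 0. Summed levels of genes listed for other cells differed widely between libraries, also within a pair. The summed level of the 4 genes listed for Reissner's membrane and the cochlear roof, of which *Vmo1* is the most abundant, was 1647 scaled FPKM in wild-type basal library 1 and 133 in library 2. In homozygous basal libraries 1 and 2 it was 13.9 and 2.11, and the other 8 libraries lay between 142 and 629.9. The 9 spiral ganglion neuron genes, led by *Snap25*, summed to 43.6 and 753 in the wild-type basal libraries and to 2601 and 2850 in the homozygous ones. In roof genes the libraries of each basal pair thus stood far apart, and homozygous basal library 2 was nearly without roof genes and rich in neuron genes. The apical and middle results are therefore also given without the basal libraries, and the basal results with single libraries left out. The mutation itself cannot be read from FPKM. In the order wild-type against homozygous, *Gjb2* was 248 and 254 against 332 and 376 in apical libraries, 139.7 and 268 against 256 and 451 in middle ones, and 434 and 256 against 126 and 58.6 in basal ones.

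The genes that make up the potassium exit channel were at very different levels in different libraries. *Kcne1* (ENSMUSG00000039639.7, minus strand of chromosome 16 of GRCm38, 92345982 to 92359468) was listed at 0 and 0.151 scaled FPKM in the wild-type apical libraries and was 36.0 and 121 in the homozygous ones. Middle libraries had 0.431 and an entry of 0 for wild-type mice, and 47.0 and 68.9 for homozygotes. Basal libraries 1 and 2 had an entry of 0 and 60.8 for wild-type mice, and 35.9 and an entry of 0 for homozygotes. Thus *Kcne1* was above 35 in 6 libraries, all 4 homozygous libraries of the apical and middle turns and 1 basal library of each genotype, and below 1 in the other 6. The genotypes did not overlap in the apical and middle turns and overlapped in the basal turn. Wild-type apical and middle libraries, labeled as cochlear tissue, thus had *Kcne1* values of at most 0.431, 2 of them listed at 0. RNA of whole pieces of tissue cannot tell fewer cells of a type from less RNA per cell.

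*Kcnq1* (ENSMUSG00000009545.14, plus strand of chromosome 7, 143107254 to 143427042) had a higher floor than its partner. Wild-type apical libraries had 1.90 and 2.96 scaled FPKM, and the homozygous ones 21.8 and 60.1. In the middle turn the values were 2.90 and 3.54 against 25.6 and 35.4. Basal wild-type libraries had 7.70 and 27.2, homozygous ones 19.1 and 0.574. The 6 libraries with *Kcne1* above 35 were also the 6 with the highest *Kcnq1*, and the lowest value of all was that of homozygous basal library 2.

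*Esrrb* (ENSMUSG00000021255.17, plus strand of chromosome 12, 86361117 to 86521628) divided the libraries in the same way. Its scaled FPKM was 0.252 and 0.592 in the apical turn of wild-type mice against 27.2 and 79.9 in that of homozygotes. Middle libraries had 1.53 and 0.828 against 31.7 and 57.3. Basal libraries had 0.202 and 37.4 against 26.2 and 3.58, so that only this turn overlapped. Homozygous basal library 2 kept some *Esrrb*, although *Kcne1* was listed at 0 in it.

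*Bsnd* (ENSMUSG00000025418.7, minus strand of chromosome 4, 106483456 to 106492283) was the least abundant of the 6 genes. It was listed at 0 in both wild-type apical libraries and was 4.74 and 9.79 scaled FPKM in the homozygous ones. The middle turn had 0.0354 and an entry of 0 against 2.89 and 7.55. The basal turn had an entry of 0 and 4.67 against 2.69 and 0.0105. No wild-type library other than basal library 2 reached 0.1.

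*Slc12a2* (ENSMUSG00000024597.11, plus strand of chromosome 18, 57878678 to 57946821), which is also used by other cells of the cochlea, was present in every library. Apical libraries of wild-type mice had 52.3 and 52.7 scaled FPKM, those of homozygotes 126 and 239.6. Values in the middle turn were 65.2 and 54.3 against 139.9 and 182. Values in the basal turn were 40.3 and 162 against 121 and 54.4. The same 6 libraries were the highest, but no library was below 40.3.

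*Lrp2* (ENSMUSG00000027070.14, minus strand of chromosome 2, 69424340 to 69586065) did not share this division. Its apical values were 66.4 and 74.9 scaled FPKM for wild-type mice and 63.7 and 132 for homozygotes. Its middle values were 63.0 and 86.1 against 90.3 and 74.6. Its basal values were 122 and 79.8 against 45.8 and 0.0953. The genotypes overlapped in the apical and middle turns, both homozygous basal libraries lay below both wild-type ones, and the near absence in homozygous basal library 2 had no counterpart in any other library.

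**Figure D1:**
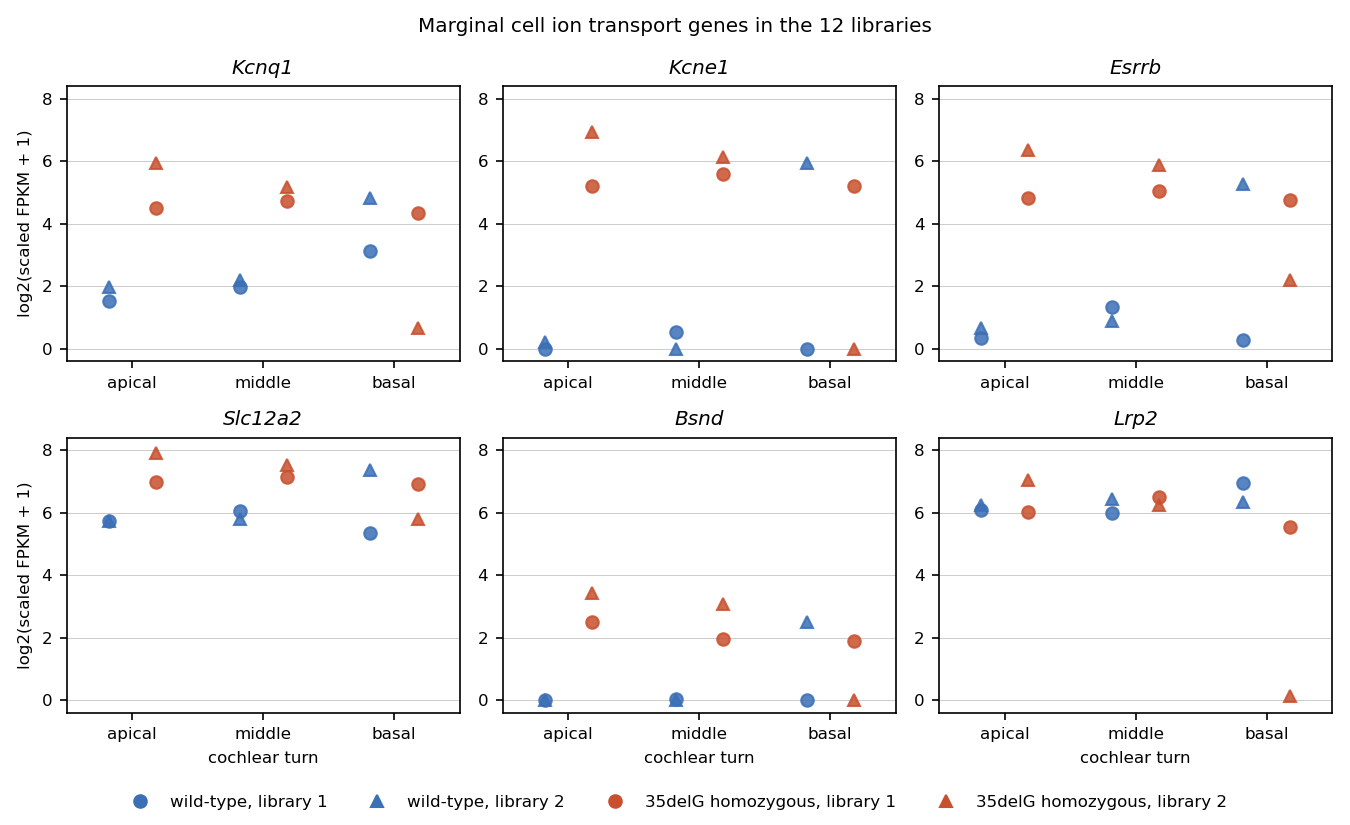
Level of each of the 6 genes in the 12 libraries, as log2(scaled FPKM + 1) on the vertical axis, by cochlear turn on the horizontal axis. Each symbol is 1 library, with color for genotype and shape for the library number. *Kcne1*, *Kcnq1*, *Esrrb*, *Bsnd* and *Slc12a2* are high in the same 6 libraries, among them wild-type basal library 2, and *Lrp2* is low only in homozygous basal library 2.

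Homozygous and wild-type mice were compared in each turn with limma on log2(scaled FPKM + 1), a scale that understates the change of genes near 0, in a single fit of all 12 libraries. Calls needed more than a 2-fold difference and an adjusted p below 0.01. The 16215 genes tested include all 6 members. Apical levels did not overlap, with homozygotes higher, for 5 of the 6 members, against 26.9% of all genes tested, and 0 of 6 were called, against 0.179% of all genes. At an unadjusted p under 0.05 there were 5 members and 2663 genes. The log2 fold change of *Kcne1* was 5.97 (standard error 1.94, adjusted p = 0.182), that of *Esrrb* 5.08 (1.42, adjusted p = 0.139), that of *Kcnq1* 3.46 (1.04, adjusted p = 0.163) and that of *Slc12a2* 1.71 (0.61, adjusted p = 0.217). The value of *Kcne1*, with wild-type libraries at or near 0, depends on the pseudocount of 1 and was 8.70 and 10.68 with pseudocounts of 0.1 and 0.01. No fold is given for *Bsnd*, whose wild-type apical libraries are listed at 0 (adjusted p = 0.141). *Lrp2* had 0.37 (95% interval −2.66 to 3.41, adjusted p = 0.925).

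In the middle turn the count of members without overlap was again 5 of 6, all higher in homozygotes, against 31.3% of all genes. The fit called 0 of 6, against 0.179% of all genes, and 5 members and 4118 genes had an unadjusted p under 0.05. The log2 fold change was 5.60 for *Kcne1* (standard error 1.94, adjusted p = 0.119), 4.34 for *Esrrb* (adjusted p = 0.103), 2.89 for *Kcnq1* (adjusted p = 0.131), 2.50 for *Bsnd* (adjusted p = 0.109) and 1.41 for *Slc12a2* (adjusted p = 0.193). With the smaller pseudocounts *Kcne1* had 7.95 and 9.74 and *Bsnd* 5.36 and 7.78. *Lrp2* had 0.15 (95% interval −2.88 to 3.19, adjusted p = 0.959). With the FPKM as deposited, the median of all genes in this turn was itself at 0.17, and after rescaling to an equal sum at 0.13 (−0.13 in the apical turn).

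The spread in the fit is shared by all 6 groups, so the 2 unlike pairs of basal libraries widen the error of every turn. Without the 4 basal libraries, an alternative chosen after the data were seen, *Kcne1* (adjusted p = 0.00406 apical, 0.00578 middle) and *Esrrb* (adjusted p = 0.00604 and 0.00852) were called in both turns with the same fold changes, 2 of 6 members. The other 4 members were not called in either turn in that fit, which called 72 genes (apical) and 133 genes (middle) in all. With only the 4 apical libraries, *Kcne1* alone was called in that turn (adjusted p = 0.00946), and with library weights *Esrrb* alone (adjusted p = 0.00980), among 93 and 258 genes called in all. The same settings called 0 members in the middle turn, among 0 and 63 genes.

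In the basal turn 0 of 6 members were called, against 4.29% of all genes, and 1 member and 5249 genes had an unadjusted p under 0.05. The log2 fold change was −1.48 for *Kcnq1* (95% interval −3.84 to 0.89, adjusted p = 0.371), −0.37 for *Kcne1* (−4.78 to 4.04, adjusted p = 0.921), 0.72 for *Esrrb* (adjusted p = 0.769), 0.00 for *Slc12a2* (adjusted p = 0.9995) and −0.30 for *Bsnd* (adjusted p = 0.839). These values average a high and a low library in each genotype, and leaving out a basal library turns the sign for each of these 5 genes. *Lrp2* was the member with the lowest p, at −3.80 (standard error 1.34, adjusted p = 0.0820), and the only member without overlap, lower in homozygotes, against 27.8% of all genes. Without homozygous basal library 2 its log2 fold change was −1.09, and without homozygous basal library 1 it was −6.51 (adjusted p = 0.00112), so the size rests on library 2.

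**Figure D2:**
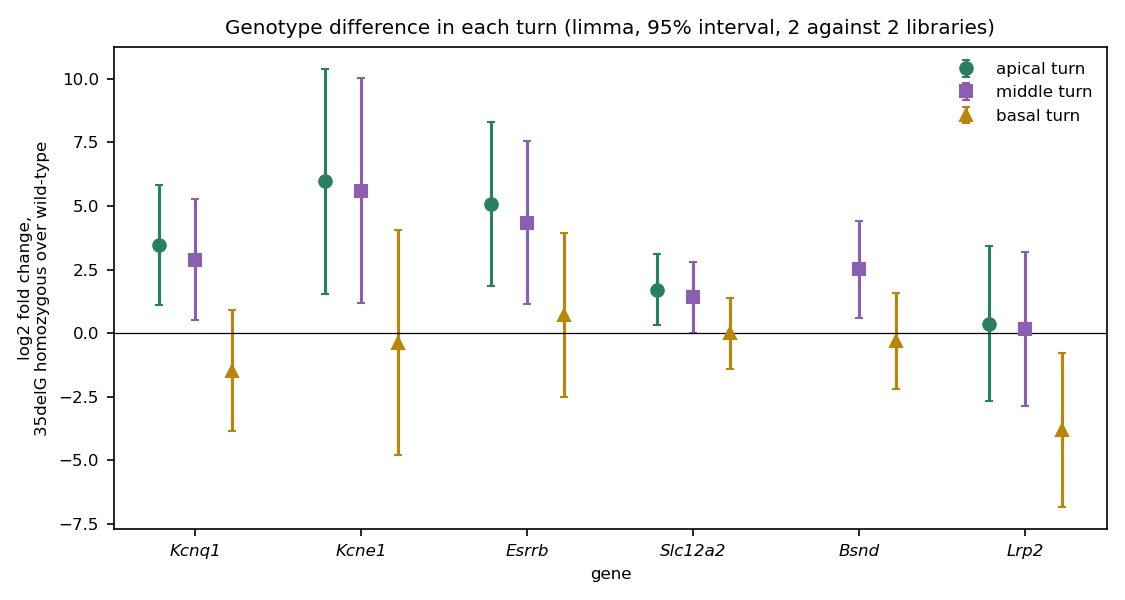
Log2 fold change of homozygous over wild-type libraries for each gene, on the vertical axis, in the apical (circles), middle (squares) and basal (triangles) turns, with 95% intervals from limma, 2 libraries against 2. The apical value of *Bsnd* is left out because both wild-type libraries are listed at 0. The apical and middle intervals of *Kcnq1*, *Kcne1*, *Esrrb* and *Slc12a2* lie above 0, the basal ones span it, and only *Lrp2* has a basal interval below 0.

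Averaged over the 3 turns, 0 of 6 members were called (0.376% of all genes), although 5 members and 3013 genes had an unadjusted p under 0.05. The largest mean difference was that of *Kcne1* (log2 fold change 3.73, standard error 1.12, adjusted p = 0.122), and *Esrrb* had the lowest adjusted p (3.38, standard error 0.82, adjusted p = 0.0705). Whether the genotype difference itself varies between turns was tested directly. The cochleae were cut into the turns, so libraries of different turns may come from the same mice. The fit takes all libraries as independent, in this test, in the mean above and in the comparisons of turns within a genotype. Between the basal and the apical turn *Kcnq1* had the lowest p (difference −4.94 on the log2 scale, standard error 1.47, adjusted p = 0.0614), and 0 of 6 were called, against 0.796% of all genes. Between the basal and the middle turn 0 of 6 were called, against 8.91% of all genes. Between the middle and the apical turn 0 of 6 were called, against 0% of all genes. At an unadjusted p under 0.05 these 3 tests had 3, 2 and 0 members, beside 4598, 6111 and 1306 of the 16215 genes.

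Position along the cochlea was compared within each genotype. In wild-type mice 0 of 6 members were called between the basal and apical turns (0.0863% of all genes), the middle and apical turns (0.0863%) or the basal and middle turns (0%), and 0 members had an unadjusted p under 0.05 in any of them, beside 3297, 3219 and 2472 genes. The wild-type basal mean was higher than the apical and the middle mean for 6 of 6 members. The median log2 fold changes were 1.73 and 1.44, beside −0.03 and 0.03 for all genes. Without wild-type basal library 2 the medians of the members were −0.05 and −0.14. In homozygous mice both basal libraries lay below both apical libraries for 6 of 6 members (30.5% of all genes). They lay below both middle libraries for 6 of 6 (33.2%). The gap was narrow for library 1, whose *Kcne1* of 35.9 stood beside 36.0 in apical library 1. The fit called 0 of 6 members in these comparisons, against 4.06% and 4.66% of all genes, with 3 and 2 members at an unadjusted p under 0.05, beside 5329 and 5610 of the 16215 genes. *Lrp2* had the largest basal minus middle difference (log2 fold change −3.54, adjusted p = 0.0978). Between the middle and apical turns 0 of 6 were called, against 0% of all genes, and 0 members and 429 genes had an unadjusted p under 0.05.

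Proportions between the members were compared next. Ratios were taken in the 6 libraries with *Kcne1* above 1 scaled FPKM, where FPKM, being per length, can be set against each other. These libraries were chosen by *Kcne1* itself, so the ranges below hold for them only. In the other 6, *Kcne1* was at most 0.431 and *Kcnq1* was 0.574 to 7.70. The ratio of *Kcne1* to *Kcnq1* was 1.65 and 2.02 in the homozygous apical libraries, 1.83 and 1.95 in the homozygous middle libraries, 1.88 in homozygous basal library 1 and 2.23 in wild-type basal library 2, a range of 1.35-fold, while *Kcne1* itself went from 35.9 to 121. The ratio of *Esrrb* to *Kcne1* lay between 0.615 and 0.831, also 1.35-fold. The other ratios were less steady, at 1.78-fold for *Slc12a2*, 1.77-fold for *Lrp2* and 2.14-fold for *Bsnd*, and *Slc12a2* itself spanned little more, from 121 to 239.6. *Slc12a2* was 1.98 to 3.52 times *Kcne1*, *Lrp2* was 1.08 to 1.92 times and *Bsnd* 0.0616 to 0.132 times. The only wild-type library among them was at the upper end for *Kcne1* to *Kcnq1*, at the lower end for *Esrrb* to *Kcne1* and within the range of the others for the remaining 3. With a single wild-type library, a difference between genotypes in these ratios was not tested.

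**Figure D3:**
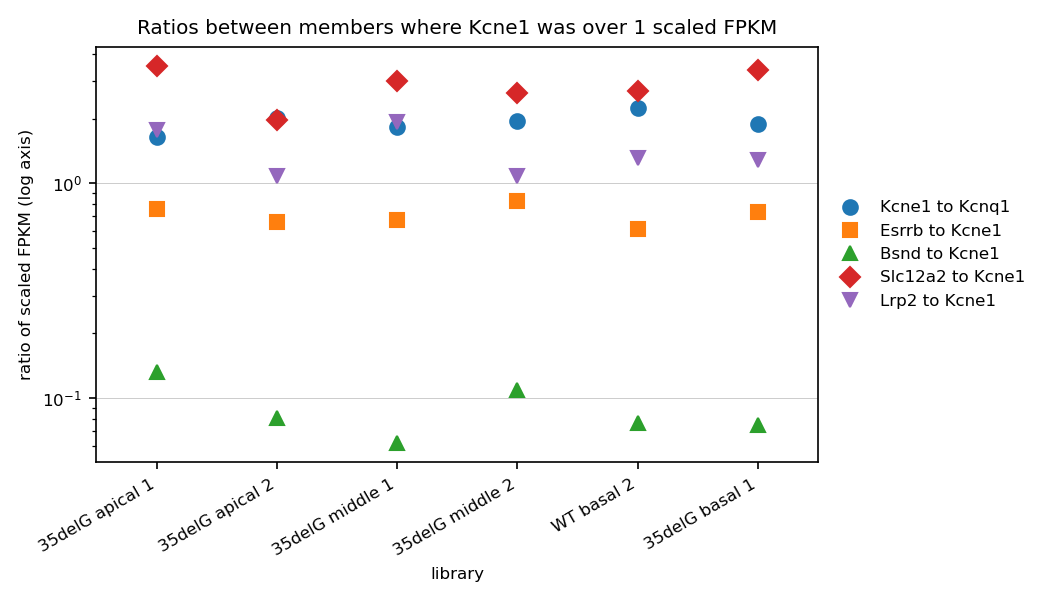
Ratios of scaled FPKM between members, on a logarithmic vertical axis, in the 6 libraries with *Kcne1* above 1 scaled FPKM on the horizontal axis. Each symbol is 1 ratio in 1 library. The ratio of *Kcne1* to *Kcnq1* stays between 1.65 and 2.23, and wild-type basal library 2 lies near the homozygous libraries.

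Because the libraries fall into 2 sets, a correlation over all 12 mainly restates this division and is given as a description. Pearson's r of log2(scaled FPKM + 1) over the 12 libraries was 0.98 for *Kcne1* with *Esrrb* and 0.94 for *Kcne1* with *Kcnq1*. For *Lrp2* with the other 5 members it lay between 0.12 and 0.54. The value of 0.54, with *Kcnq1*, became −0.04 without the 2 libraries farthest from the median of *Kcnq1*. *Lrp2* had an r of 0.86 with *Coch*, a gene of spiral ligament fibrocytes, and of 0.83 with the roof gene *Vmo1*. By Spearman's rank correlation these were 0.23 and 0.52.

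The genes most like the members were sought among the 9460 other genes tested averaging 5 scaled FPKM or more, by Pearson's r with the mean z-score of the 6 members over the 12 libraries. Among the 10 highest were *Dclk1* (0.985), *Dct* (0.985), *Tmem45b* (0.982), *Tyr* (0.976), *Msx3* (0.973), *Slc45a2* (0.972), *Dnase1* (0.972), *Rufy4* (0.972) and *Rgs4* (0.971). *Dct*, *Tyr* and *Slc45a2* are pigment genes of melanocytes, the cell type from which the intermediate cells of the stria derive. *Dnase1*, which encodes a secreted nuclease, spanned 1.85 to 1377 scaled FPKM. The 5 lowest were *Stxbp6* (−0.929), *Zfp942* (−0.901), *Pmvk* (−0.893), *Plcb4* (−0.883) and *Slc6a15* (−0.871), and their levels spanned less, with *Stxbp6* between 4.50 and 13.2.

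Other genes of marginal cells leaned the same way in part. Of the 11 other marginal cell genes, 8 were higher and 3 lower in homozygotes in the apical turn, 9 and 2 in the middle turn and 2 and 9 in the basal turn, with median log2 fold changes of 0.12, 0.51 and −0.88 beside medians of all genes of −0.03, 0.04 and −0.02. By limma 0 of the 11 were called higher or lower in the apical and middle turns. In the apical, middle and basal turns 6, 5 and 6 had an unadjusted p under 0.05. Of the 16215 genes, 2663, 4118 and 5249 did. Basal calls were 1 lower and 0 higher, the Notch target gene *Heyl* (log2 fold change −2.01, adjusted p = 0.00822).

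Relatives of the members were listed for the channel, the cotransporter, the receptor ESRRB and the partners of LRP2, and none for *Bsnd*. Of the 7 other KCNQ and KCNE genes tested, 1 was called higher and 0 lower in the apical turn. This was *Kcne4*, at 0.213 and 0.212 scaled FPKM against 14.6 and 19.7 in homozygotes (log2 fold change 3.89, adjusted p = 0.00344), and *Kcne4* was 0.771 and 0.255 against 5.39 and 2.82 in the middle turn (log2 fold change 1.73, adjusted p = 0.0410), also without overlap, and 5.46 and 3.19 against 4.74 and 2.44 in the basal turn. None of the 7 was called in the middle or basal turn in either direction, where 3 and 4 had an unadjusted p under 0.05. *Kcne2*, the most abundant of them by mean, was 44.6 in wild-type basal library 1, the library with the highest roof genes, and at most 9.27 elsewhere. Of the 9 cotransporter and kinase genes tested, 0 were called in either direction in the apical, middle and basal turns, and 2, 3 and 0 had an unadjusted p under 0.05. *Slc12a1*, the kidney relative of *Slc12a2*, was at most 0.0701. The 2 other estrogen-related receptors were not called higher or lower in any turn, where 0, 1 and 2 had an unadjusted p under 0.05, and *Esrrg*, like the neuron genes, was lowest in wild-type basal library 1 (0.0819), and it was highest in homozygous basal library 1 (37.1).

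Of the 5 LRP2 endocytic partners tested, 0 were called higher or lower in any turn, with 1 at an unadjusted p under 0.05 in each. The most abundant, *Lrpap1*, which encodes the chaperone RAP of LDL receptor relatives, was 58.8 and 62.2 scaled FPKM against 132 and 214 in homozygotes in the apical turn and 57.6 and 58.3 against 109 and 160.0 in the middle turn, so that it did not overlap between genotypes where *Lrp2* did. Its basal values were 96.4 and 116 against 84.0 and 40.0. Of the 3 connexins 0 were called in either direction, with 1, 1 and 2 at an unadjusted p under 0.05, and *Gjb6* was 166 and 155 against 283 and 379 in the apical turn, 124 and 176 against 285 and 448 in the middle turn and 292 and 271 against 166 and 154 in the basal turn.

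Markers of other cells moved with the members in some libraries. The 13 intermediate cell genes, led by *Dct*, summed to 131 and 129.7 scaled FPKM against 478 and 1141 in homozygotes in the apical turn, to 126 and 95.4 against 466 and 994 in the middle turn, and to 144 and 948 against 349.5 and 95.9 in the basal turn. The 6 libraries with high *Kcne1* were thus also the 6 with the highest sum. *Dct* alone was at most 5.59 in the other 6 and at least 158 in these. Not every gene of the list followed. *Kcnj10* was 25.4 to 61.6 in the other 6 and 35.2 to 65.8 in these, and *Tyrp1* was at most 0.941 in any library. Of the 13 genes 3 had an entry of 0 in at least 1 library, and of the 12 tested, 0 were called in the apical and middle turns, where 7 and 6 had an unadjusted p under 0.05. Basal calls were 1 lower and 0 higher, and 2 had an unadjusted p under 0.05 in that turn. Without regard to the test, 11, 12 and 2 of the 12 were higher in homozygotes. The 5 strial basal cell genes, led by *Cldn11*, summed to 291.6 and 216 against 410.2 and 522.5 in homozygotes in the apical turn, to 622 and 232 against 368 and 510.2 in the middle turn and to 507 and 364 against 405 and 443.5 in the basal turn. The genotypes did not overlap in the apical turn only, and 0 genes were called in any turn (unadjusted p under 0.05 for 3, 0 and 1). The part of tissue content in the differences between genotypes was not tested.

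Some sums of the lateral wall and the roof were lowest in the homozygous basal libraries. The 8 spiral ligament fibrocyte genes, led by *Coch*, summed to 1292 in homozygous basal library 2, to 3370 in library 1 and to between 7314 and 12380 in the other 10 libraries. None of the 8 was called in any turn, 1, 1 and 5 had an unadjusted p under 0.05, and homozygotes were lower for 6 and higher for 2 in the basal turn. The 5 root and spindle cell genes, led by *Anxa1*, summed to 24.0 and 84.6 in homozygous basal libraries 2 and 1 and to between 111 and 360.0 elsewhere, with 1 called higher in the apical turn and 1 lower in the basal turn. Of the 4 roof genes 2 were called lower in the basal turn, *Vmo1* among them (log2 fold change −6.50, adjusted p = 0.00965). The 8 supporting cell genes, led by *Ceacam16*, summed to 16.4 and 86.0 in homozygous basal libraries 2 and 1 and to 594 to 3426 elsewhere, with 1 called higher in the apical turn and 4 lower in the basal turn. Homozygous basal library 1 had high *Kcne1* while its roof and supporting cell sums were below those of all libraries but homozygous basal library 2, and library 2 had all of these low together with *Lrp2*. The part of these cells in the low *Lrp2* of library 2 was not tested.

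The remaining lists varied among libraries too. The 9 neuron genes had 0 called in any turn and 0, 5 and 8 at an unadjusted p under 0.05. Outside the basal turn their sum ran from 622 to 1465 for wild-type mice and from 83.6 to 336 for homozygotes. The 7 Schwann cell and myelin genes, led by *Mbp*, reached 19530 in wild-type middle library 1 and were lowest, at 799.8 and 800.1, in the homozygous middle libraries, with 1 called lower in the middle and 2 higher in the basal turn. The 9 hair cell genes, led by *Pvalb*, which neurons also express, summed to 192 to 889. Limma called 1 higher in the middle turn and 2 lower in the basal turn. In homozygotes 9 were lower in the apical turn, 7 were higher in the middle turn and 7 lower in the basal turn. An unadjusted p under 0.05 was reached by 5, 4 and 7 of them. *Pvalb* itself was lower in the middle turn, at 511 and 733 against 105 and 18.1, so the sum does not follow the list there. The 8 bone cell genes, led by *Ibsp*, were highest in wild-type basal library 2 (2844) and homozygous middle library 1 (2708), 2 of the 6 libraries with high *Kcne1*, and lay between 57.9 and 958 elsewhere. The apical, middle and basal turns had 8, 6 and 1 of these 8 genes higher in homozygotes, a direction shared with most members. The 5 red blood cell genes, led by *Hbb-bs*, went from 232 to 4991, the 6 macrophage genes, led by *C1qb*, from 42.1 to 189, the 6 endothelial genes, led by *Cldn5*, from 35.6 to 74.5, and the 5 muscle genes, led by *Mylpf*, from 0.918 to 4.27. Of these last 5 lists limma called 0 genes in any turn. In the apical, middle and basal turns an unadjusted p under 0.05 was reached by 1, 2 and 0 bone, 0, 0 and 5 blood, 3, 0 and 0 macrophage, 1, 1 and 1 endothelial and 0, 0 and 2 muscle genes.

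**Figure D4:**
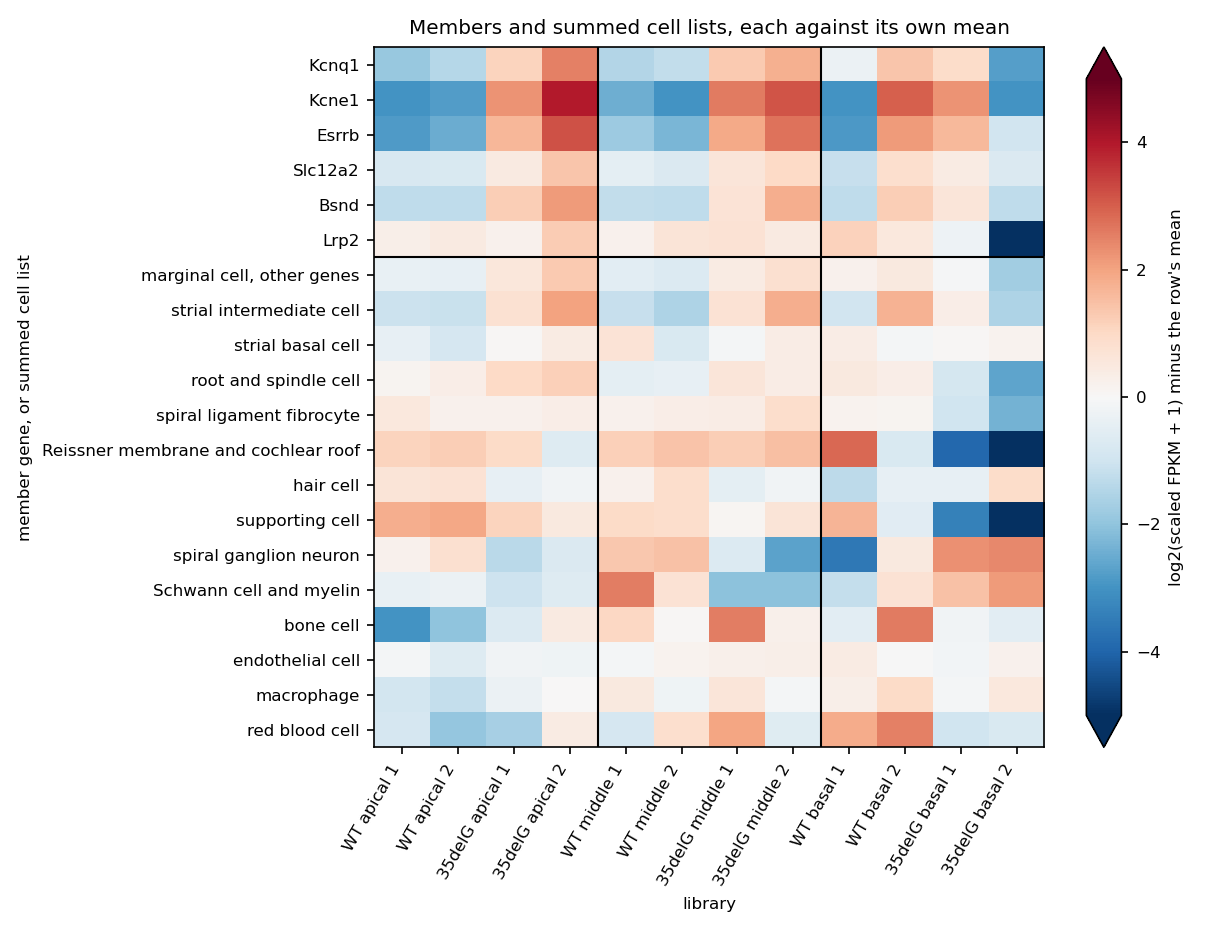
Level of the 6 members (above the line) and summed level of the cell lists (below it) in the 12 libraries, as log2(scaled FPKM + 1) minus the mean of the row, in color from −5 (blue) to 5 (red). Libraries are ordered by turn and genotype. The summed intermediate cell row, led by *Dct*, follows *Kcne1*, although not every gene in it does. Homozygous basal library 2 is low in *Lrp2*, roof, supporting and root cell genes.

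Promoter sequences were looked up because *Esrrb*, a member, encodes a factor with a known recognition motif. RefSeq promoters of build GRCm38.p6 were matched by symbol for 2 of the 6 members, 2 starts of *Esrrb* and 1 of *Lrp2*. The letters AAGGTCA, the core of the estrogen-related receptor motif, were searched on both strands in the 250 bases before each start. They occur in 4.08% of 32851 promoters and in 0 of these 3, and the longer TCAAGGTCA, which contains them, in 0.387% and in 0 of 3. Since none held the motif, the sequences upstream of the member that was divided among the libraries and of the one that was not are shown for reading side by side, a choice made after the search, with each CG pair in capitals. For *Esrrb* this is chr12:86360867-86361116 on the plus strand, which ends at the base before the gene start of the deposited table, and for *Lrp2* chr2:69586066-69586279 on the minus strand, the part upstream of the gene in that table.
Esrrb: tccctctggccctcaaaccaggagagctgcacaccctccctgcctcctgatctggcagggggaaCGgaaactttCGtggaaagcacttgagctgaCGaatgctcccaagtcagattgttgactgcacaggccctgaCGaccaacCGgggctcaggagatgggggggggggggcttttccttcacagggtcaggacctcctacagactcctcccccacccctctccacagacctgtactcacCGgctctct
Lrp2: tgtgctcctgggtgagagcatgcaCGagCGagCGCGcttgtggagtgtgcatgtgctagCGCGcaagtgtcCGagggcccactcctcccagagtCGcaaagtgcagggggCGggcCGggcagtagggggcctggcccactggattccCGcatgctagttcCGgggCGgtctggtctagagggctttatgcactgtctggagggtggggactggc
The *Esrrb* sequence is 60.8% G and C with 6 CG pairs in 250 bases, and the *Lrp2* sequence 65.9% with 13 in 214 bases. The median of all promoters over 250 bases is 52.4% and 6 pairs, with quartiles of 2 and 16 pairs. No measurement of these promoters belongs to the data, and nothing on their use is drawn from the letters.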

How the data were processed

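Per the labels and the methods, the authors trimmed 150 bp paired reads with fastp 0.20.0, aligned them to mm10 with STAR 2.7.3a, kept unique reads and computed with StringTie 2.0 the deposited FPKM of 37432 genes. Their read counts were not used here. Scaling factors (0.917 to 1.06) came from median ratios of 11552 genes that reached 1 FPKM in every library. Genes with at least 1 FPKM in 2 libraries (16215) entered a limma 3.58.1 fit under R 4.3.3 of log2(scaled FPKM + 1), 1 mean per group, eBayes with trend, two-sided, Benjamini-Hochberg over all genes. Values show no whole-read steps, so depth is unknown and the spread between libraries is the only error. An exact permutation of 2 against 2 libraries cannot go under p = 0.333 and was not used. On simulated data the fit called 197 of 200 changed genes and 3 unchanged ones. The simulation gave every gene the same spread and held no unlike pairs of libraries. By contrast, *Kcne1* had a standard deviation of 4.21 on the log2 scale in the wild-type basal libraries. The simulated counts therefore do not tell how often changes of the members would be called. The members and the lists of genes for cells and families were chosen with earlier results of these data known. Named genes were the members, genes of the marginal cell and family lists, the most abundant gene of each other list, and 9 of the 10 genes most like and the 5 least like the members. Alternatives were pseudocounts of 0.1 and 0.01, no filter or 5 FPKM, other scalings, only the groups compared, no trend, library weights, a replicate block, other thresholds, each library left out, and 2 sets of basal libraries left out. Figures used matplotlib 3.10.9.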

Additional observations from a re-analysis of the deposited data

How the results depend on the processing

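Of 186 counts of members called under settings other than leaving out a single library, 178 were 0 as in the fit reported, and of 156 with a single library left out, 149. In the apical turn 1 member was called with only the groups compared and 1 with library weights. A pair of alternatives was chosen after the values of these very genes had been seen. Without the 4 basal libraries, the apical turn had 2 members called and the middle turn 2. Without both basal libraries numbered 2, which are the wild-type basal library that was high and the homozygous one that was low, the apical, middle and basal turns had 2, 2 and 2 called and the mean of the turns 5, among 66, 130, 1376 and 335 of all genes. In the basal turn this choice leaves a high homozygous and a low wild-type library by construction. The calls of the basal turn and of the mean of the turns are therefore no evidence of a genotype difference. No apical or middle library was removed by it. The basal log2 fold changes were then 1.21 for *Kcnq1*, 5.20 for *Kcne1* and 1.88 for *Bsnd*, of opposite sign to those with all libraries. With 1 library left out, which leaves a lone library assumed to vary like the other groups, the count called ranged from 0 to 1 in the basal turn, the mean of the turns, the basal minus apical genotype effect and the homozygous basal minus apical and basal minus middle contrasts, and from 0 to 2 for the basal minus middle effect. Each such count above 0 came without homozygous basal library 1, and in the mean of the turns also without wild-type basal library 2. The basal log2 fold change then ranged from −3.31 to 0.36 for *Kcnq1*, −3.35 to 2.60 for *Kcne1*, −1.78 to 3.22 for *Esrrb*, −0.99 to 0.99 for *Slc12a2* and −1.55 to 0.95 for *Bsnd*. For *Lrp2* it ranged from −0.14 to 0.89 in the apical and −0.0682 to 0.38 in the middle turn. With a pseudocount of 0.01 the basal value of *Bsnd* was 0.12, since its low values then weigh more. With the replicate number as a block, 0 members were called in each of the 13 comparisons. The numbers do not pair the libraries in the labels, and deviations of equal numbers correlated between −0.43 and 0.45. Depth is unknown, and with 2 libraries a group the intervals stay wide.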
